A study of Mus musculus with 6 samples.

Results

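The genes described here encode sperm proteins of gamete fusion, the step at which the sperm and egg membranes join. The group was chosen by symbol from 8 genes: Izumo1, Izumo2, Izumo3, Izumo4, Spaca6, Tmem95, Dcst1 and Dcst2. Of these, 7 matched an entry among the 24411 genes of the expression tables. No entry carried the symbol Dcst2 or its RefSeq synonym, so Dcst2 was not analysed here. Whole testes of C57BL/6 mice were sequenced as bulk RNA from 3 animals with the genotype MRP5-/- and MRP9-/- (labelled DKO) and 3 with the genotype Wildtype (labelled WT), with the animals matched for age. MRP5 and MRP9 are ABC transporters encoded by Abcc5 and Abcc12; the labels give neither the age of the animals nor the design of the alleles, and say that the series concerns male reproduction and mitochondrial function. P-values measure the spread between these samples, and nothing beyond the labels shows that they are separate animals.

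Fusion follows the acrosome reaction, in which the sperm sheds its cap and exposes proteins of the membrane beneath. IZUMO1 then binds its receptor JUNO on the egg, encoded by Izumo1r, and sperm lacking IZUMO1, SPACA6, TMEM95, DCST1 or DCST2 reach the egg membrane but do not fuse with it. The transcripts are made in the testis, mostly in spermatids, so their level in whole testis reads the supply of mRNA to developing sperm and not the amount of protein on mature sperm. IZUMO2, IZUMO3 and IZUMO4 share the Izumo domain of IZUMO1. IZUMO3 has been linked to acrosome formation in spermatids, and IZUMO4 lacks a membrane-spanning segment, so the term membrane protein does not describe every member.

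The members lie on 6 chromosomes in mouse (RefSeq, GRCm38.p6). Izumo2 (chr7:44708698-44719848) and Izumo1 (chr7:45621811-45627242) share chromosome 7, on the plus strand. Izumo3 lies at chr4:92144318-92147225 on the minus strand, Izumo4 at chr10:80702015-80705382 on the plus strand, Tmem95 at chr11:69876054-69878171 on the minus strand and Spaca6 at chr17:17826085-17843010 on the plus strand. Dcst1 (chr3:89350219-89365253, minus strand) and Dcst2 (plus strand) lie on opposite strands. RefSeq promoter entries were found for 7 of the 8 genes, all except Izumo4. Upstream sequence is shown for Izumo3, the member called between the groups, for Izumo1, the best known fusion protein, and for the stretch between Dcst1 and the start that the promoter table gives for Dcst2. Each runs 5′ to 3′ and ends at the base before the start that the promoter table gives, which for Izumo3 lies inside the gene record placed above, and capitals mark matches to the motifs listed after the sequences.
Izumo3, chr4:92147222-92147471, minus strand: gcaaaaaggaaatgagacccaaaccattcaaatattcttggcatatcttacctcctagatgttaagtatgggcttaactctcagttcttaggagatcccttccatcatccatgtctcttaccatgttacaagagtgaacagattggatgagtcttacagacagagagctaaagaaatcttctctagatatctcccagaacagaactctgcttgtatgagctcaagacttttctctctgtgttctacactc
Izumo1, chr7:45621561-45621810, plus strand: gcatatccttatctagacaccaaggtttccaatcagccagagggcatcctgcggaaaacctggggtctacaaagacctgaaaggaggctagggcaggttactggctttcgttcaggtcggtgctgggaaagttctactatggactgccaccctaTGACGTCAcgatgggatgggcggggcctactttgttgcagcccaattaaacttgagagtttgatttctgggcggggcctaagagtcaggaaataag
Dcst1 to Dcst2, chr3:89365254-89365318, plus strand: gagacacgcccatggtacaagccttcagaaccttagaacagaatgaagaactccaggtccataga

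The motifs searched, on both strands of the 250 bases upstream of each start, were TGACGTCA (the cAMP response element, bound by CREM in spermatids), its core TGACG, the RFX core GTTGCC and the TATA box TATAAA. TGACGTCA was present upstream of Izumo1, from base -96 to base -89 relative to the start, and of no other member with an entry; 1.55% of 32851 promoters of the table hold it. The core TGACG, which lies within TGACGTCA, was also found upstream of Tmem95 and occurs in 17.8% of promoters. GTTGCC was found upstream of Spaca6 (on the minus strand) and occurs in 10.4% of promoters. TATAAA was found upstream of 0 of the 7 members with an entry and in 12.4% of promoters. The Izumo3 window has a GC content of 40.0% and the Izumo1 window 51.6%. The stretch between Dcst1 and the Dcst2 start of the promoter table is 65 bases, but the Dcst2 gene record of RefSeq and that of GENCODE M21 begin further back, within Dcst1.

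The libraries differed in ways that bear on every value below. The libraries labelled DKO held 42673615 to 67131103 expected counts and those labelled WT 26753721 to 31745969, and the mean fragment length recovered from the length columns was 275 to 317 bases against 230 to 258 bases. Neither measure overlapped between the groups (exact two-sided permutation test, p = 0.1 for each, the smallest that 3 against 3 allows), so they cannot be told apart from genotype. Abcc12 was lower in libraries labelled DKO (79.0 ± 5.56 against 160 ± 3.93 CPM, SD, n = 3 each), while Abcc5 was higher (16.8 ± 0.190 against 11.4 ± 0.898 CPM). The edgeR test called both, Abcc12 at a log2 fold change of -1.02 (adjusted p = 0.000307) and Abcc5 at 0.56 (adjusted p = 0.0225). Abcc5 lost its call in 6 of the 18 alternative fits, among them log2(TPM + 1) (limma adjusted p = 0.107). The label MRP5-/- does not by itself tell the direction of Abcc5 mRNA, since the design of the alleles is not given. CPM here is a gene's count relative to its library's total, scaled by TMM, which compares libraries, and TPM is scaled by transcript length, which compares genes. In a bulk sample fewer cells of a type and less RNA per cell cannot be told apart.

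All 7 members were detected in every library, and 1 of them, Izumo3, was called between the groups by the edgeR test. In TPM averaged over the 6 libraries, Izumo2 stood highest (297 TPM), above Izumo3 (162), Izumo4 (140), Izumo1 (92.4), Dcst1 (67.6), Spaca6 (35.3) and Tmem95 (11.9). Izumo2 lay at percentile 96.3 of the mean TPM of all tested genes and Tmem95 at percentile 56.7. Every neighbouring pair in this order was separated in all 6 libraries, with no overlap of their ranges, except Izumo3 and Izumo4. Spaca6 and Tmem95, both needed for fusion, were thus the scarcest transcripts of the group.

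**Figure D1:**
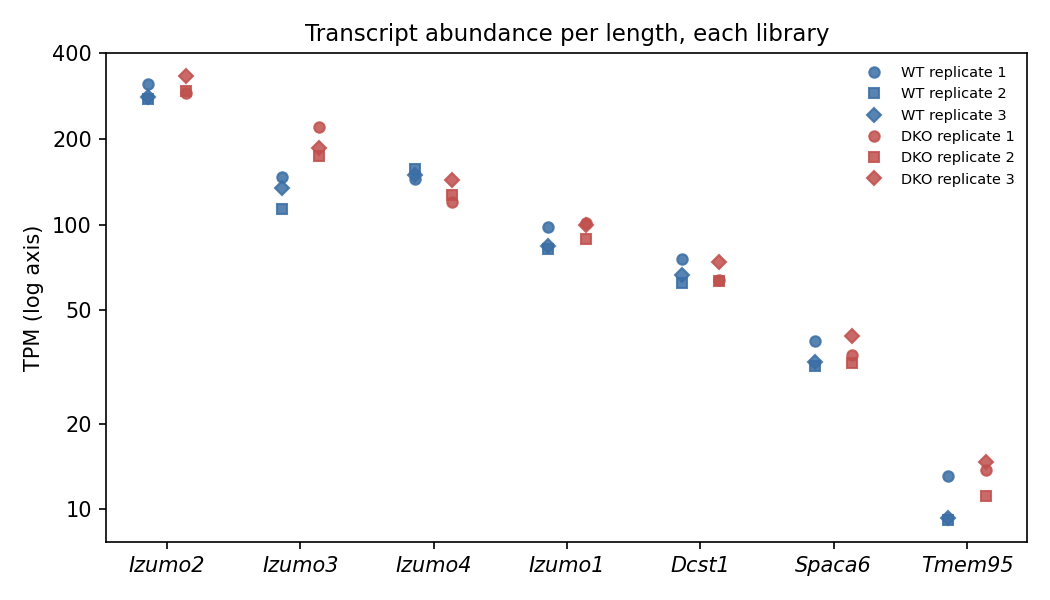
Transcript abundance of the 7 measured fusion genes in TPM on a log axis, 1 point per library, blue for labelled WT and red for labelled DKO. Izumo2 lies highest at 277 to 331 TPM and Tmem95 lowest at 9.20 to 14.7 TPM, and Izumo3 lies above Izumo4 in 3 of 3 libraries labelled DKO and 1 of 3 labelled WT.

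The order of Izumo3 and Izumo4 by mean TPM differed between the groups. In libraries labelled DKO, Izumo3 was at 220, 174 and 185 TPM and Izumo4 at 120, 127 and 143 TPM. In libraries labelled WT, Izumo3 was at 147, 114 and 134 TPM and Izumo4 at 145, 156 and 150 TPM. The ratio of Izumo3 to Izumo4 was 1.84, 1.36 and 1.29 in labelled DKO and 1.01, 0.728 and 0.897 in labelled WT, with no overlap between the groups. Izumo4 was above Izumo3 in WT replicates 2 and 3 but not in WT replicate 1. This ratio was chosen after its values were seen and was not tested.

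Izumo3 was the member called higher. Its normalized counts were 148, 123 and 123 CPM in libraries labelled DKO and 103, 74.1 and 91.0 CPM in those labelled WT. All libraries labelled DKO lay above all libraries labelled WT. The means were 131 ± 14.7 and 89.2 ± 14.3 CPM (SD, n = 3 each). The log2 fold change was 0.56 (SE 0.116), or 1.47-fold (95% interval 1.24 to 1.76; edgeR quasi-likelihood test, adjusted p = 0.0269). Izumo3 was thus the 1 member called of 7, and 0 were called lower (1, Izumo4, at an unadjusted edgeR p under 0.05), where 10.8% of all 17110 tested genes were called, 5.75% of them higher and 5.1% lower as shares of all tested genes. The call was lost without DKO replicate 1, WT replicate 2 or WT replicate 3 (edgeR adjusted p = 0.113, 0.0839 and 0.101), although the log2 fold change stayed between 0.43 and 0.66 whichever of the 6 libraries was omitted. In those 3 fits edgeR called 0 of all tested genes higher and 11, 13 and 7 lower, so every gene reported here as called higher lost its call there, while the unadjusted p of Izumo3 was 0.00284, 0.00139 and 0.00246. With the mean fragment length as a covariate the log2 fold change was 0.0851 (adjusted p = 0.999), and with the trends on transcript length and GC content removed it was 0.34 (adjusted p = 0.0458).

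Izumo4 was the other member whose groups did not overlap, but it was not called. It stood at 53.1, 60.1 and 63.9 CPM in libraries labelled DKO and at 68.5, 69.8 and 69.1 CPM in those labelled WT. The spread within labelled WT was small (69.1 ± 0.664 CPM, SD, n = 3), and that within labelled DKO was wider (59.1 ± 5.52 CPM). The log2 fold change was -0.23 (SE 0.0792; 0.855-fold, 95% interval 0.758 to 0.964; edgeR adjusted p = 0.0789). Non-overlapping CPM was found in 2 of 7 members and in 35.9% of all tested genes, and for TPM the background was 33.2%. Without DKO replicate 3 the difference passed the threshold (log2 fold change -0.29, adjusted p = 0.0330). The log2 fold change was 0.0325 (SE 0.0541) with the length and GC trends removed and 0.0081 (SE 0.110) with the fragment length as a covariate. Each of these is smaller than its SE. It stayed below 0 with an effective-length offset (-0.16) and on log2(TPM + 1) (-0.21). Its size, and the sign of an estimate near 0, thus differed with the handling of transcript and fragment length.

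Izumo1, the ligand of JUNO, was not called. Its values were 85.1, 78.1 and 81.5 CPM in libraries labelled DKO and 84.3, 65.2 and 69.8 CPM in those labelled WT. WT replicate 1 reached the range of the libraries labelled DKO, and the other 2 labelled WT lay below it. The log2 fold change was 0.16 (SE 0.0937; 1.12-fold, 95% interval 0.968 to 1.29; edgeR adjusted p = 0.266). It was 0.0762 without WT replicate 2 and 0.26 without WT replicate 1 (adjusted p = 0.674 and 0.057). Izumo2, a paralog on the same chromosome, had 67.2, 75.4 and 81.1 CPM in labelled DKO and 82.9, 71.6 and 74.0 CPM in labelled WT. The ranges of the groups overlapped, and the log2 fold change was -0.0288 (SE 0.0874; 0.980-fold, 95% interval 0.858 to 1.12; edgeR adjusted p = 0.850). On the TPM scale Izumo2 was at 305 ± 22.9 in labelled DKO and 290 ± 18.7 in labelled WT (SD, n = 3 each), the opposite order.

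**Figure D2:**
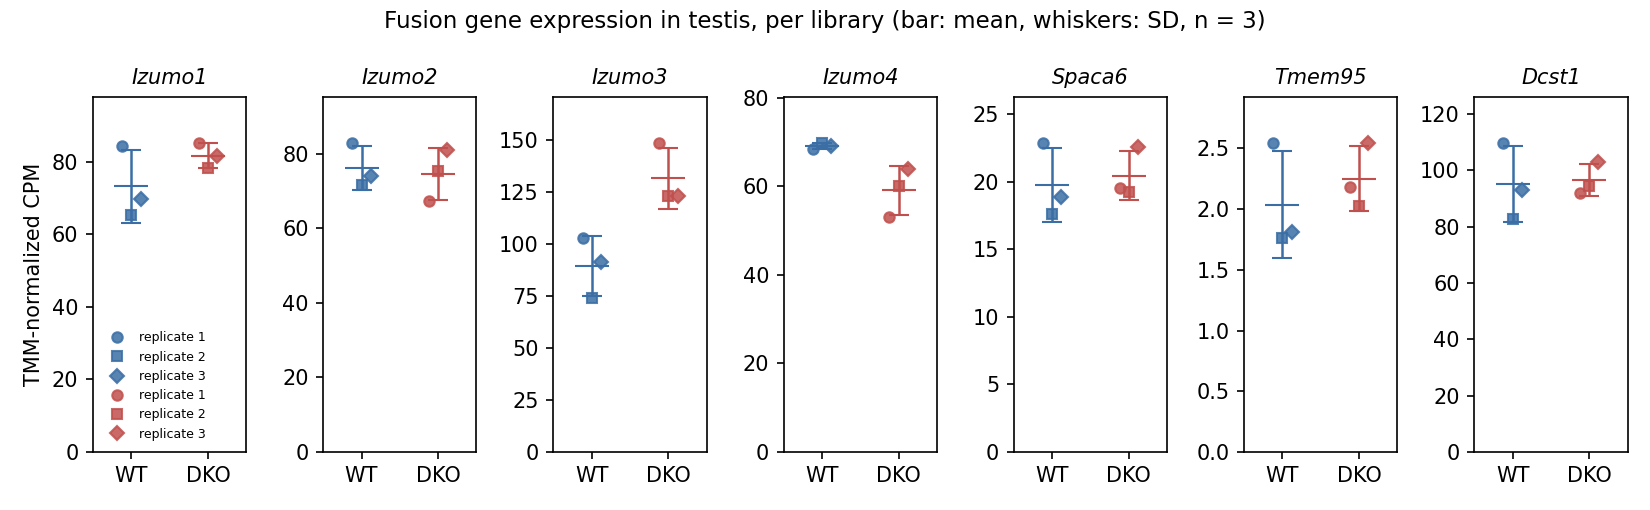
TMM-normalized CPM of each measured fusion gene, with 1 point per library, the group mean as a horizontal bar and whiskers of 1 SD (n = 3). The groups do not overlap for Izumo3 (122.9 to 148 against 74.1 to 103 CPM) or Izumo4 (53.1 to 63.9 against 68.5 to 69.8 CPM) and overlap for the other 5 genes.

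The fusion proteins outside the IZUMO family were not called, and their ranges overlapped between the groups. Spaca6, which encodes a membrane protein with an immunoglobulin-like domain needed for fusion, had 19.5, 19.3 and 22.5 CPM in libraries labelled DKO and 22.9, 17.6 and 18.8 CPM in those labelled WT. Its log2 fold change was 0.0539 (SE 0.110; 1.04-fold, 95% interval 0.878 to 1.23; edgeR adjusted p = 0.771). Dcst1, whose product works with DCST2 as a multi-pass membrane protein, had 92.1, 94.4 and 102.9 CPM in labelled DKO and 109.7, 82.8 and 93.0 CPM in labelled WT. The libraries labelled WT spanned the whole range of those labelled DKO, and the log2 fold change was 0.0211 (SE 0.0983; 1.01-fold, 95% interval 0.874 to 1.18; edgeR adjusted p = 0.905). Without DKO replicate 3 the log2 fold changes were -0.0235 for Spaca6 and -0.0277 for Dcst1, and without WT replicate 2 they were -0.0311 and -0.0770, so neither estimate has a settled sign.

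Tmem95, which encodes a small membrane protein of the sperm head, was the scarcest and the least precise. It was covered by 91, 89 and 172 counts in libraries labelled DKO and by 67, 59 and 56 in those labelled WT. That is 2.19, 2.02 and 2.55 CPM against 2.54, 1.76 and 1.81 CPM, ranges that overlap through WT replicate 1. The log2 fold change was 0.16 (SE 0.188; 1.12-fold, 95% interval 0.841 to 1.49; edgeR adjusted p = 0.585), so at this depth a difference of up to 1.49-fold lies within the interval. Its transcript is the shortest of the members, at 531 bases, and the share of it that counts as effective length was 42.1 to 48.5% in labelled DKO and 52.6 to 57.2% in labelled WT. On the TPM scale, which uses the effective length, it was at 13.2 ± 1.87 against 10.6 ± 2.21 (SD, n = 3 each). With an offset for effective length the log2 fold change was 0.37 and with the length and GC trends removed 0.42, neither past the threshold (adjusted p = 0.218 and 0.224).

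Fusion proteins work together on the sperm head, so their proportions were examined within each library, where library scaling cancels. The ratio of Spaca6 to Izumo1 in TPM was 0.343, 0.365 and 0.407 in libraries labelled DKO and 0.397, 0.390 and 0.393 in those labelled WT. The values of labelled WT lay inside the range of labelled DKO, and the mean log2 ratio differed by -0.0841 (exact two-sided permutation test, n = 3 each, p = 0.4). The ratio of Tmem95 to Izumo1 was 0.135, 0.124 and 0.148 in labelled DKO and 0.133, 0.112 and 0.112 in labelled WT, a difference of 0.19 in the mean log2 ratio (exact permutation p = 0.2). In a design of 3 against 3 no such p can fall below 0.1. Of the 2 ratios tested, neither separated the groups (Benjamini-Hochberg adjusted p = 0.4 for both). Ratios with Dcst2 were not analysed here.

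**Figure D3:**
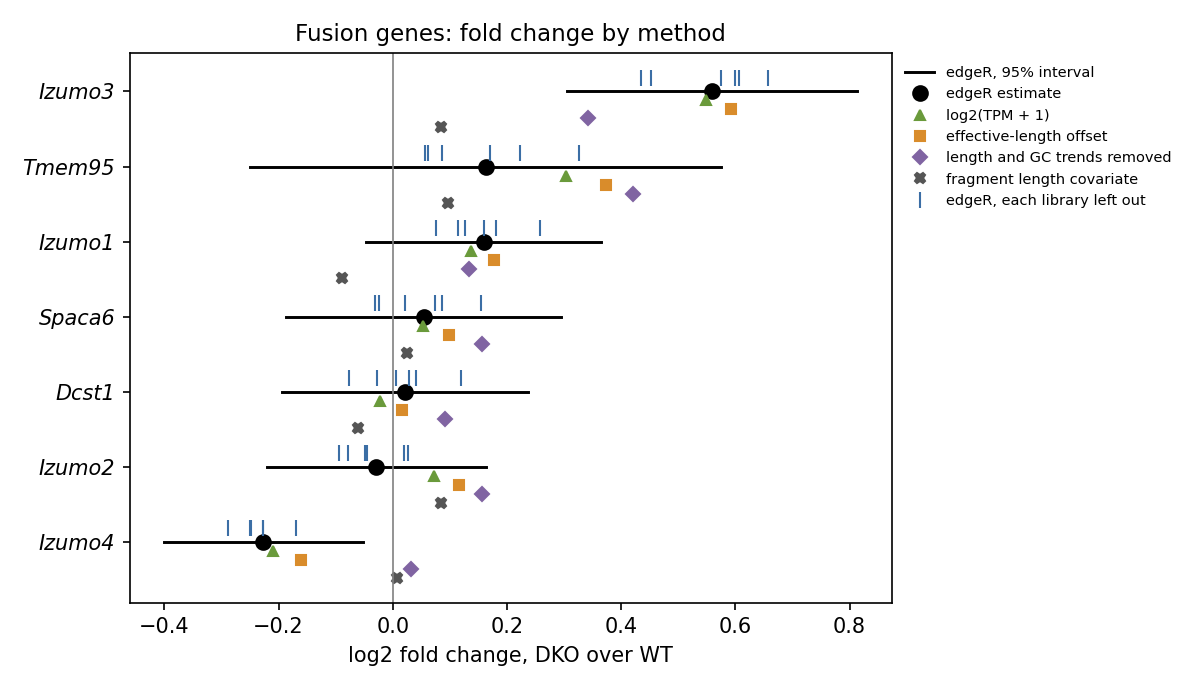
Log2 fold change, labelled DKO over labelled WT, of the 7 fusion genes: the edgeR estimate as a black point with its 95% interval, the 6 fits that leave out a library as blue ticks, and 4 other settings as coloured marks. Izumo3 lies to the right of 0 at every mark, from 0.0851 with the fragment length as a covariate to 0.66 without WT replicate 1, while Izumo4 moves from -0.23 to 0.0325 when length and GC trends are removed.

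Over the 7 members the median log2 fold change was 0.0539, with a range of -0.23 to 0.56, and 5 estimates were above 0 and 2 below. The median of all tested genes was -0.0042. Within groups, 1 library was often the highest for several members. WT replicate 1 had the highest log2 CPM of its group for 6 of 7 members and WT replicate 2 the lowest for 6 of 7, with Izumo4 the exception in both. In labelled WT, WT replicate 1 also had the longest fragments of its group (258 bases) and WT replicate 2 the shortest (230 bases). In labelled DKO the members did not follow the order of fragment length in this way. DKO replicate 3, with the shortest fragments of its group (275 bases), was highest for 5 members and lowest for 0. DKO replicate 1, with the longest (317 bases), was highest for Izumo1 and Izumo3 and lowest for 3 members. DKO replicate 2, at 289 bases, was lowest for 4. The part of fragment length in these shifts was not tested.

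Likeness of profiles was measured as the root mean square difference between centred log2 CPM over the 6 libraries, among 12023 other genes whose average log2 CPM was 2 or more. By this measure Camk1d (0.0271) and Asb15 (0.0287) were among the genes most like Izumo1. Those most like Spaca6 were Fam196b (0.0329), Cbx2 (0.0332) and Dcst1 (0.0380). Dcst1, itself a fusion gene, was thus at rank 3 for Spaca6, while Tmem95 and Izumo1 were at 0.0836 and 0.0963. Tmem95 (mean 2.25 CPM in labelled DKO and 2.04 CPM in labelled WT) fell below the cut in average log2 CPM. Its distance was measured although it is not among the 12023 genes. Izumo3 and Izumo4 were the members farthest from Spaca6, at 0.296 and 0.196. These profiles rest on 6 libraries that share the depth and fragment length differences given above.

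Other sperm factors of adhesion and fusion were not called. Of all 17110 tested genes edgeR called 10.8%, and 5428 had an unadjusted edgeR p under 0.05. Of 10 listed genes, all were in the files and 9 were tested, with 0 called by the edgeR test, 3 at an unadjusted p under 0.05. Limma on log2(TPM + 1) called 0 of them, edgeR with the length and GC trends removed 1, and DESeq2 2. Over all tested genes these settings called 735, 619 and 2943, in the same order. Of the listed genes edgeR called 2 without DKO replicate 3 and 1 without WT replicate 1. Those fits called 3029 and 2037 of all tested genes, against 1856 with all libraries. The median log2 fold change of the tested genes of this list was 0.0961. 1700034O15Rik, listed by RefSeq as Llcfc1 and encoding the fusion factor SOF1, was abundant at 513 ± 15.9 TPM in labelled DKO and 548 ± 29.2 in labelled WT (SD, n = 3 each; log2 fold change -0.16, edgeR adjusted p = 0.173). 4930451I11Rik, which encodes FIMP, had a log2 fold change of 0.20 (adjusted p = 0.334), and Tmem81, whose product is placed in a complex with IZUMO1 and SPACA6, one of -0.10 (adjusted p = 0.482). The largest estimates were those of Cd46, a complement regulator of the acrosomal membrane, at 0.44, and Eqtn, an acrosomal membrane protein, at 0.39 (adjusted p = 0.0725 and 0.0690).

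Crisp2, a secreted protein of the acrosome and tail, was by far the most abundant of this list, at 2649 ± 126 against 2343 ± 67.1 TPM (SD, n = 3 each; log2 fold change 0.20, edgeR adjusted p = 0.0979). Spesp1, of the equatorial segment where fusion takes place, was at 0.0961 and Itgb1, an integrin subunit, at 0.0656 (adjusted p = 0.391 and 0.570). 1700029I15Rik, which encodes FREY1, a partner of newly made IZUMO1 in the endoplasmic reticulum, was at -0.021 in CPM (adjusted p = 0.930). It is a short transcript and depended on the scale: it was at 0.35 on log2(TPM + 1) (adjusted p = 0.0829) and at 0.48 with the length and GC trends removed (adjusted p = 0.0415). Crisp1, made in the epididymis, had 2 to 6 counts per library and was not tested.

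The egg-side partners served as a check of the tissue. Izumo1r, which encodes JUNO, had 1 count over all 6 libraries together, and the zona pellucida genes Zp1, Zp2 and Zp3 had 16, 1 and 43, and Astl 8. Transcripts of the receptor of IZUMO1 were therefore at or near 0 where IZUMO1 mRNA was plentiful. The tetraspanins Cd9 and Cd81, which the egg needs for fusion but many cells carry, were measured in testis, with log2 fold changes of 0.21 and -0.38 (edgeR adjusted p = 0.378 and 0.0536). The CPM ranges of Cd81 did not overlap between the groups, as for 35.9% of all tested genes. Cd81 was called in 4 of the 18 alternative fits, among them DESeq2 (adjusted p = 0.0126), which called 2943 genes. With fragment length as a covariate its log2 fold change was 0.10.

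Acrosome and sperm maturation genes were described by their counts; the maturation list also holds genes of other cells, among them Rnase10 of the epididymis markers and Tex101 of the spermatocyte markers. Of 19 tested genes of the acrosome matrix and membrane, 0 were called (edgeR, 10 at an unadjusted p under 0.05), with a median log2 fold change of 0.0626 and a range of -0.27 to 0.37. Of all 17110 tested genes, 10.8% were called, 5.75% higher, and 5428 had an unadjusted edgeR p under 0.05. Of 20 genes for maturation of the ADAM3 complex and passage through the female tract or zona, 2 were called, both higher: Prss37, a protease-like protein (0.46, adjusted p = 0.0343), and Pmis2 (0.41, adjusted p = 0.0498). Their median was 0.0205. Adam3 itself, which sperm need to enter the oviduct, was at -0.0508 (adjusted p = 0.721). Without DKO replicate 3, 6 genes of each list were called, and without WT replicate 1, 1 acrosome gene and 4 maturation genes. Over all tested genes edgeR called 3029 without DKO replicate 3 and 2037 without WT replicate 1, against 1856 with all libraries. Leaving out any other library gave 0 for both lists.

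**Figure D4:**
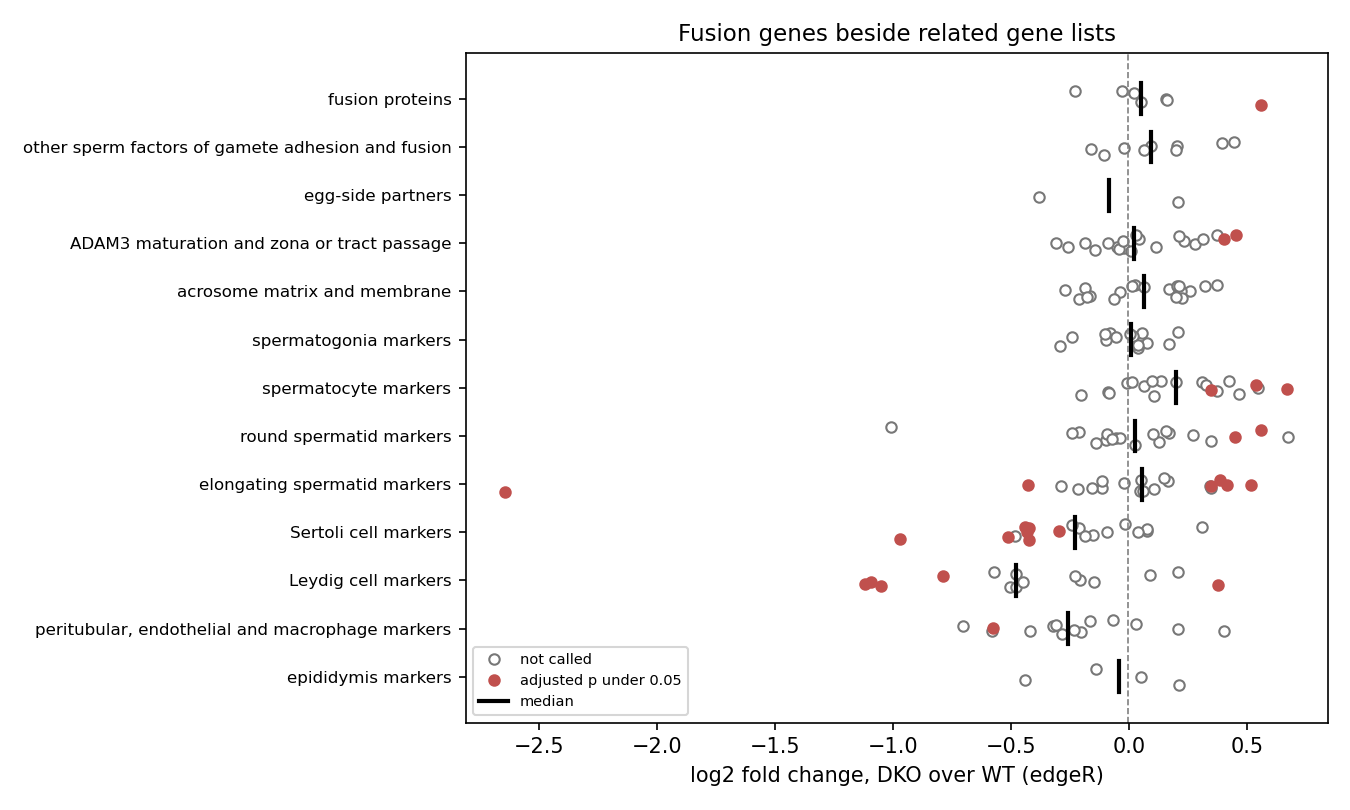
Log2 fold change, labelled DKO over labelled WT, of each tested gene in the fusion group and in 12 related lists, with called genes filled red and the median of each list as a black bar. The fusion genes have a median of 0.0539 with Izumo3 at 0.56, near the medians of the acrosome genes (0.0626) and round spermatid markers (0.0269), while Leydig markers have a median of -0.48.

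Markers of the cells that a testis holds were counted beside these results. Among all 17110 tested genes edgeR called 10.8%, 5.75% higher and 5.1% lower, and 5428 had an unadjusted p under 0.05. Of 19 round spermatid markers 2 were called, both higher, namely Tex21 (0.45, edgeR adjusted p = 0.0369) and Izumo3 itself, which belongs to this list; the median was 0.0269 and summed levels were 3451 to 3548 CPM in labelled DKO and 3249 to 3710 CPM in labelled WT. Of 20 elongating spermatid markers 4 were called higher and 2 lower (median 0.056), led by Prm3 at -2.64 and Akap3 at 0.52. Spermatocyte markers had 3 of 19 called, all higher, with Sycp3 at 0.67, Tdrd5 at 0.35 and Hormad1 at 0.54 and a median of 0.20; their summed level was 4892 to 5276 against 4643 to 5075 CPM. Spermatogonia markers had 0 of 14 called (edgeR, 1 at an unadjusted p under 0.05). Leaving out a library moved these counts. Spermatocyte calls were 7 without DKO replicate 3, 2 without WT replicate 1, 1 without DKO replicate 2 and 0 without any of the other 3. Calls ranged from 0 to 4 for round and from 1 to 7 for elongating spermatid markers. Over all tested genes edgeR called 3029 without DKO replicate 3, 2037 without WT replicate 1 and 655 without DKO replicate 2. The part of spermatocyte or spermatid share in the level of Izumo3 was not tested.

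Somatic markers were also counted. Over all tested genes edgeR called 10.8%, with 5.75% higher and 5.1% lower as shares of all tested genes. Sertoli markers had 7 of 18 called, all lower (median -0.23; summed 1790 to 2068 against 2022 to 2346 CPM), with Defb19 at -0.97, Rhox8 at -0.42 and Cst12 at -0.51. Leydig markers had 4 of 15 called lower and 1 higher (median -0.48; summed 895 to 1180 against 1121 to 1997 CPM), with Star at -0.79. Peritubular, endothelial and macrophage markers had 1 of 14 called, Tagln at -0.58 (median -0.26). Without DKO replicate 1, WT replicate 2 or WT replicate 3 at most 1 gene of each of these 3 lists was called. Without DKO replicate 3 or WT replicate 1 the counts were 9 and 7 for Sertoli, 5 and 10 for Leydig and 5 and 6 for the last list. Over all tested genes these 2 fits called 3029 and 2037, against 1856 with all libraries. Without DKO replicate 2, where 655 genes were called, Defb19, Cst12, Star and Tagln stayed called (edgeR adjusted p = 0.00696, 0.0386, 0.0343 and 0.0398). Rhox8 did not (edgeR adjusted p = 0.0552). None of the genes of these 3 lists was at 0 in all libraries. Of 16 epididymis markers, 3 were at 0 in all libraries (Lcn5, Lcn8 and Spag11b), and 12 were too low to test. The 4 tested were not called by edgeR, and some were well expressed. In labelled DKO, mean TPM was 814 for Cst8, 270 for Wfdc15a, 6.81 for Rnase10 and 1.84 for Spink8. In labelled WT, mean TPM was 744, 254, 6.03 and 2.34 in the same order. The part of somatic cell content in the fusion gene values was not tested.

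Genes that overlap a member could share its reads, since the handling of strand is not given in the sources used here. All 7 members have 1 RefSeq transcript each in the files and whole-number counts in every library, so no fractional share of a fragment was assigned to a member. The overlaps given here are of whole gene spans, introns included, and do not measure shared transcript sequence. In GENCODE M21, Rasip1 overlaps the end of Izumo1 by 1336 bases on the same strand. In RefSeq, Izumo1 ends at base 45627242 and no overlap with Rasip1 was found. Rasip1 had a log2 fold change of -0.31 (edgeR adjusted p = 0.0754). Dcst2 overlaps Dcst1 by 3279 bases on the other strand in GENCODE M21, and by 14837 bases in RefSeq. Whether fragments of Dcst2 were counted for Dcst1 was not tested. In RefSeq, Spaca6 overlaps Has1, which had 2 to 4 counts per library, and the microRNA genes Mir99b, Mirlet7e and Mir125a, which were listed at 0 in every library.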

How the data were processed

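RNA from whole testes was sequenced in 6 libraries. Per the submitters' processing notes, STAR 2.7.0f, RSEM 1.2.31, DESeq2 1.12.3 and the build mm10 were used. The files deposited by the authors give, per the file headers, an RSEM expected count, a TPM value, a length and an effective length per gene, other values in bases, with 1 library per file. Expected counts deposited by the authors were rounded. Genes were kept by filterByExpr (17110 of 24411), scaled by TMM and tested with the edgeR 4.0.16 quasi-likelihood test, with genotype as the only term and Benjamini-Hochberg adjustment over all tested genes; called means an adjusted p under 0.05. TPM deposited by the authors was used for levels. The SE is the fold change divided by the square root of F. The mean fragment length of a library was recovered from genes over 3000 bases, as the median difference of the length columns with 1 added.

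The members and all gene lists were chosen with earlier results of these data known. Named were all members, both targeted genes, up to 3 called genes of smallest p per list, every measured gene of the 2 lists on sperm factors and egg partners, and the 3 genes nearest in profile to Izumo1 and to Spaca6; other names were added for context after their values were seen. A gene that this rule names is not reported here. Replicates were numbered in accession order. Alternatives were DESeq2 size factors, no filter, a mean count of at least 50, unrounded counts, an effective-length offset, DESeq2 1.42.0, limma 3.58.1 (voom, and on log2(TPM + 1) and log2(TPM + 0.1)), fragment length as a covariate, removal of trends on length and GC content (mgcv 1.9.3), thinning, and leaving out each library. GC content was found for 97.8% of genes through GENCODE M21. Scripts were tested on simulated data. Sequences are from RefSeq tables for GRCm38.p6, the same assembly as mm10.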

Additional observations from a re-analysis of the deposited data

How the results depend on the processing

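No paired analysis was possible because the replicate numbers were given in accession order and the labels pair no samples. The Izumo3 estimate was above 0 in all 18 alternative fits and past the threshold in 14; with fragment length as a covariate it was 0.0851, less than its SE of 0.134. The number of members called was 1 (2 of 7 at an unadjusted edgeR p under 0.05, as were 5428 of 17110 tested genes). It was 0, and 0 higher, with fragment length as a covariate, where 0 members had an unadjusted p under 0.05, and 0, and 0 higher, at an adjusted p under 0.01. Leaving out each library gave from 0 to 2 members called, from 0 to 1 higher and from 0 to 1 lower, with 2 at an unadjusted p under 0.05 in each of the fits with 0. The median member log2 fold change ranged from -0.0311 to 0.15 there. Over all tested genes 1856 were called, and leaving out each library gave from 7 to 3029, from 0 to 1903 higher and from 7 to 1126 lower. DESeq2 called 2943 (1645 higher). Limma called 735 on log2(TPM + 1) (279 higher, 456 lower) and 947 on log2(TPM + 0.1) (370 higher, 577 lower). With the length and GC trends removed 619 were called (327 higher, 292 lower), with fragment length as a covariate 1 (0 higher, 1 lower; 545 at an unadjusted p under 0.05 in edgeR) and at an adjusted p under 0.01 in edgeR 7 (0 higher, 7 lower). The cause of these shifts was not tested.

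Signs turned as follows. With fragment length as a covariate the log2 fold changes were -0.0881 for Izumo1, 0.0839 for Izumo2, 0.00808 for Izumo4, -0.0604 for Dcst1, -0.0587 for Pmis2, -0.0693 for Tdrd5, -0.23 for Hormad1, -0.0576 for Tex21, -0.22 for Eqtn, -0.22 for Cd46, -0.0847 for Spesp1, -0.0559 for Itgb1, 0.0886 for 1700029I15Rik and 0.10 for Cd81. With the length and GC trends removed they were 0.16 for Izumo2, 0.0324 for Izumo4, -0.0529 for Crisp2, -0.0554 for Spesp1, -0.11 for Itgb1 and 0.48 for 1700029I15Rik, and with the effective-length offset 0.12 for Izumo2 and 0.39 for 1700029I15Rik. On log2(TPM + 1) they were 0.0727 for Izumo2, -0.023 for Dcst1, -0.00203 for Itgb1 and 0.35 for 1700029I15Rik, and on log2(TPM + 0.1) 0.0729 for Izumo2, -0.0233 for Dcst1, -0.0021 for Itgb1 and 0.35 for 1700029I15Rik. After thinning, 1700029I15Rik was at 0.0181. Omitting each library gave ranges of -0.0934 to 0.0274 for Izumo2, -0.0311 to 0.15 for Spaca6, -0.077 to 0.12 for Dcst1 and -0.10 to 0.092 for 1700029I15Rik. The log2 ratio of Tmem95 to Izumo1 differed by -0.0076 on the CPM scale, and by 0.13 to 0.28 when each library was left out; that of Spaca6 to Izumo1 by -0.15 to -0.0286. Counting depth limits Tmem95, with 56 to 172 counts per library, more than any other member.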

Other observations

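The profile of Izumo3 over the 6 libraries was compared with those of 12023 other genes after its values were seen. The genes nearest to it, by the root mean square difference between centred log2 CPM, were Usp9y (0.0340), a deubiquitinase gene of the Y chromosome, 1700109H08Rik (0.0356) and Map9 (0.0448), a microtubule-associated protein of the spindle. The nearest fusion gene was Izumo1, at 0.217, with 2238 genes nearer to Izumo3 than it.

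Of the genes beside the fusion genes, Adam15, a metalloprotease gene next to Dcst1 on chromosome 3, was called lower in libraries labelled DKO (mean 21.3 CPM against 27.3 CPM in those labelled WT, log2 fold change -0.36, edgeR adjusted p = 0.0431), and it was named after its values were seen. Its call was lost without DKO replicate 1, DKO replicate 2, WT replicate 2 or WT replicate 3 (edgeR adjusted p = 0.153, 0.106, 0.151 and 0.117), on both TPM scales (limma adjusted p = 0.0721 and 0.0664), with the length and GC trends removed (-0.18, adjusted p = 0.217) and with fragment length as a covariate (-0.0128, adjusted p = 0.999). Zbtb7b, on the other side of the Dcst1 and Dcst2 pair, was not called (-0.33, edgeR adjusted p = 0.0701). It had 7.45 to 9.03 CPM in labelled DKO and 9.30 to 11.3 CPM in labelled WT. These ranges did not overlap, as for 35.9% of all tested genes, but its TPM ranges did (3.09 to 3.94 against 3.90 to 4.91). Fut1 beside Izumo1, Mob3a beside Izumo4 and Kctd11 beside Tmem95 were not called (log2 fold changes of 0.18, -0.0212 and 0.11; edgeR adjusted p = 0.531, 0.898 and 0.758).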
